A study of Saccharomyces cerevisiae with 60 samples.

Results

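Mcm4-HA (HOP) was compared with the HOP control in G1-arrested budding yeast by anti-HA ChIP-seq. The comparison takes 3 libraries of each strain, 6 of the 60 libraries of the series, chosen by the labels (genotype, IP antibody and α-factor treatment) and not by any measured value. The series tests strains that express an epitope-tagged decoy protein as a control for nonspecific ChIP signals, and the question asked of Mcm4-HA was where its signal exceeds that of the decoy alone. HOP is the decoy for the HA epitope: the bacterial DNA-binding protein LexA, which has no natural target in yeast, fused to HA, expressed from the ADH1 promoter and integrated at TRP1 together with an array of lexA sites.

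Both strains are in the W303 background, MATa, and lack BAR1. The HOP strain was MPy39 (genotype label TRP-HOP). The Mcm4-HA (HOP) strain, MPy184 by its label, has the genotype label MCM4-HA;TRP-HOP, so it carries the LexA-HA decoy as well as HA-tagged Mcm4 at the native locus. The labels give strain MPy184, whereas the study's legends give MPy102, and both have MCM4 tagged with HA in a TRP1::HOPv1 strain. MPy184 is listed as derived from a cross with an fkh1 deletion strain, so its background may differ from that of MPy39 beyond the tag. Reads over FKH1, given below, were present in both strains compared. Cultures of both strains were grown in YEPD at 23 °C and held in G1 with α-factor for about 3.5 h, and both IPs used the anti-HA antibody 12CA5. Each tag was studied in 1 strain, and nothing in the labels says that the replicates were separate cultures, so p-values measure the spread between these libraries, which may be technical. Orc1-HA (HOP) libraries from G1 cells (strain MPy199), unsynchronized HOP libraries and unsynchronized libraries of the untagged strain SSY161, 3 of each, served as reference values. The unsynchronized IPs combined 12CA5 with a second anti-HA antibody, 16B12, so that they differ from the G1 IPs in culture and in antibody. The unsynchronized libraries also had a high read count over LEU2, given below, that the G1 libraries lacked.

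Mcm4 is a subunit of the MCM complex, the replicative helicase of eukaryotes. In G1 the origin recognition complex (ORC), of which Orc1 is the largest subunit, binds origins and with Cdc6 and Cdt1 loads MCM rings around the DNA as an inactive double hexamer, and loaded complexes are activated in S phase to start replication. Yeast origins lie mostly between genes, each rDNA repeat holds an origin in its non-transcribed spacer, and the subtelomeric X and Y′ elements hold origins too.

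Summed window counts were 15081101 to 21322833 in the Mcm4-HA (HOP) libraries and 12884483 to 14213406 in HOP, and the rDNA took 49.4% to 66.9% of them. Signal is given here as a multiple of the 20th percentile of the library's own smoothed windows, a percentile that lay at 17 to 32 counts per window in Mcm4-HA (HOP) and at 11 to 16.5 in HOP. Over bins of 500 bp, Pearson's r of log2 counts was 0.878 to 0.905 between Mcm4-HA libraries, 0.835 to 0.868 between HOP libraries and 0.751 to 0.770 between libraries of different strains. Chi-square between pairs of replicates was 7.09 to 28.9 per bin. A read is counted in each window that it overlaps, so these values cannot be set against counting noise. BAR1 had a signal of 0 in all 6 libraries, as the deletion in both strains requires. The tag leaves the MCM4 coding sequence in place, so that the read count over MCM4 does not check the label: the gene had a signal of 1.31 ± 0.091 in Mcm4-HA and 1.47 ± 0.12 in HOP (SD, n = 3 each, exact permutation test, two-sided, p = 0.2, where 0.1 is the smallest p that 3 against 3 libraries allow).

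Mcm4-HA signal exceeded HOP in narrow regions spread over every chromosome, and it fell below HOP in fewer and other regions, all 16 centromeres included. Of 24060 bins tested with edgeR's quasi-likelihood test, 514 were enriched (2.14% of bins tested), as the adjusted p was below 0.05 and the log2 fold change 1 or more, and 164 were depleted (0.682%), with a log2 fold change of -1 or less. All 514 enriched bins were higher in every one of the 9 pairs of an Mcm4-HA and a HOP library, against 8.4% of all bins, and 163 of the 164 depleted bins were lower in all 9 pairs, against 17.4% of all bins. The calls were made on the same 6 libraries, so this lack of overlap is largely fixed by the choice and adds no separate support. The log2 fold change had a median of 1.46 and reached 3.36 over enriched bins, and had a median of -1.19 and reached -2.27 over depleted bins. The median over all bins was -0.10, against which the values of every list below should be read. With summed counts as library sizes that median moved to 0.19, and 781 bins were enriched and 52 depleted, so that 93.8% of called bins were enriched against 75.8% in the fit reported here.

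**Figure D1:**
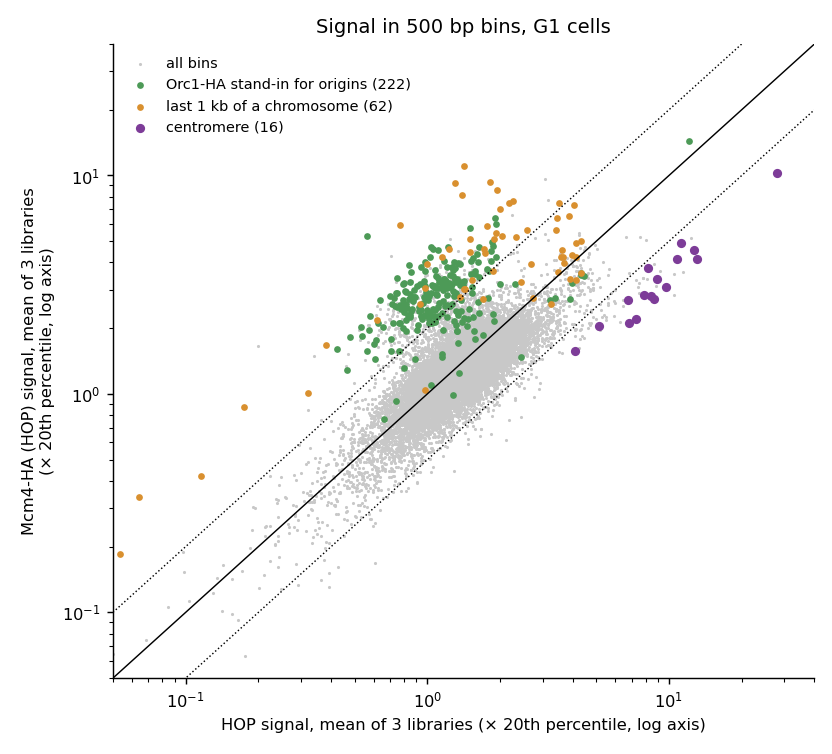
Mean signal of 3 Mcm4-HA (HOP) libraries (vertical, log axis) against that of 3 HOP libraries (horizontal, log axis) in 500 bp bins, in multiples of each library's 20th percentile; the rDNA lies beyond the axes, the solid line marks equal signal and the dotted lines a ratio of 2 in either direction. Most Orc1-HA stand-in regions for origins (green, without those in the last 1 kb) and many bins of the last 1 kb of chromosomes (orange) lie above the upper line, and the 16 centromeres (purple) lie below the solid line.

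The plot of Mcm4-HA against HOP signal places the 3 kinds of locus that the rest of the results describe. Most bins follow the diagonal, including bins of high signal in both strains. Before comparison with HOP, 1141 bins had an Mcm4-HA signal of at least 2 in each library. Of the 1141, 366 (32.1%) were enriched, 43 were depleted and 732 were not called. The median signals of the 732 bins not called were 2.51 in Mcm4-HA and 2.35 in HOP, whereas those of the 366 enriched bins were 2.95 and 1.1.

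Away from the rDNA and the construct, the enriched bins formed 369 regions, 297 of them more than 20 kb from a chromosome end. The regions were short: 233 held a single bin and the widest spanned 1500 bp. Neighboring regions were a median of 35.5 kb apart (quartiles 22 and 52 kb), with a largest gap of 108.5 kb. At the best bin of each region the median signal was 2.66 in Mcm4-HA and 0.967 in HOP. All 16 chromosomes had enriched regions, from 2.38 per 100 kb on chr VII to 5.37 per 100 kb on chr III, and chr VI followed with 4.81.

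The share of bins that were enriched was higher between genes than inside them. Of bins centered inside a protein-coding gene, 96 of 15185 were enriched (0.632%). The share was 70 of 1856 (3.77%) in gaps between divergent genes, 166 of 2854 (5.82%) between tandem genes and 91 of 899 (10.1%) between convergent genes. Outside the outermost gene of a chromosome arm it was 30 of 72 (41.7%). The share of depleted bins was 0.468% inside genes, 1.35% in divergent, 1.37% in tandem and 1.56% in convergent gaps, and 0 of 72 outside the outermost genes in edgeR. Outside the outermost genes DESeq2 also called 0 depleted, and 5 of the 72 bins were lower at an unadjusted p below 0.05 in edgeR. A further 3194 bins lie right of the construct sites on chr IV and chr XV, where the coordinates of the files and of the annotation differ, and 61 of them (1.91%) were enriched.

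The 12 regions with the largest fold changes included 9 within 20 kb of a chromosome end. The first was the left end of chr VI (501 to 1500, over YFL067W and its neighbors), where the best bin had Mcm4-HA signals of 4.62, 4.37 and 6.88 against HOP signals of 0.567, 0.70 and 0.423. Its log2 fold change was 3.36 (SE 0.20, edgeR, adjusted p = 6.84e-21). The lowest Mcm4-HA library lay far above the highest HOP library there, and Orc1-HA signal was high as well, at 6.63 ± 1.60 (SD, n = 3). The outermost 500 bp at the left ends of chr VIII, X, XII, XIII and IX followed the same pattern with log2 fold changes of 2.97, 2.96, 2.91, 2.79 and 2.61. On chr XII the Mcm4-HA signals were 10.8, 9.64 and 12.6 and the HOP signals 1.91, 0.952 and 1.41. The other regions of this kind were the right ends of chr XIV (783001 to 783500, between PAU6 and YNR077C, 2.5) and chr VIII (562001 to 562500, 2.32), and a region of 1000 bp that overlaps PAU12, a member of the seripauperin family, about 10.25 kb from the right end of chr VII (2.48). The region on chr XIV had low signal in both strains, with Mcm4-HA at 0.989, 0.865 and 0.769 and HOP at 0.236, 0.209 and 0.0773, so that its fold change compares 2 small values. The region on chr VII had low HOP signals too, at 0.242, 0.218 and 0.136. Its Mcm4-HA signals of 1.82, 1.41 and 1.73 were not far above the median of 1.36 over all bins.

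Across the genome, 21 of the 32 outermost bins of the chromosomes were enriched, 10 were not called, and 1 (right end of chr I) had too few counts to be tested. The share of enriched bins decreased inward, with 40 of 305 (13.1%) in the last 5 kb outside the rDNA and construct, 36 of 308 (11.7%) at 5 to 10 kb, 34 of 623 (5.46%) at 10 to 20 kb, 50 of 1907 (2.62%) at 20 to 50 kb and 351 of 20869 (1.68%) beyond. Chromosome ends are built of repeated elements, and how the authors' alignment placed reads among near-identical copies is not given in the sources used here, so the ends cannot be counted as separate loci.

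**Figure D2:**
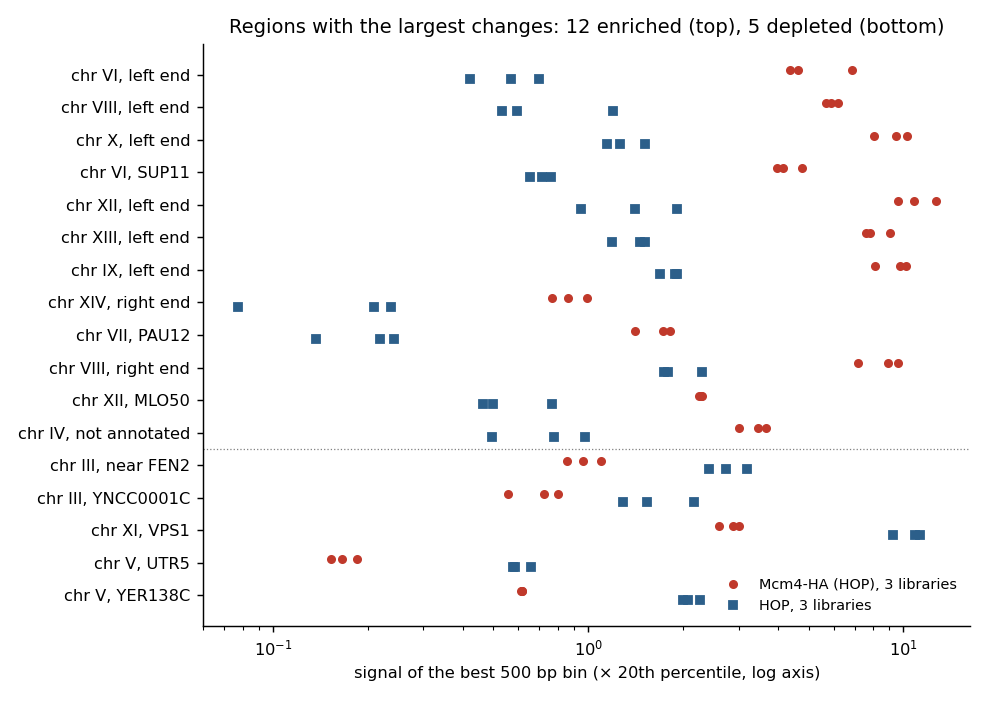
Signal of the best 500 bp bin (horizontal, log axis, multiples of the 20th percentile) in each of 3 Mcm4-HA (HOP) libraries (red circles) and 3 HOP libraries (blue squares) for the 12 enriched and 5 depleted regions with the largest fold changes. The 17 regions were chosen among those whose libraries do not overlap between strains. At the left end of chr VI, for example, Mcm4-HA spans 4.37 to 6.88 and HOP 0.423 to 0.70.

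Away from the ends, the largest change was on chr VI (167501 to 168000), in the gap between the tRNA gene SUP11 and DCV1. Mcm4-HA signals there were 4.78, 3.98 and 4.13 and HOP signals 0.764, 0.652 and 0.714, a ratio of means of 6.06 and a log2 fold change of 2.92 (SE 0.18, edgeR, adjusted p = 5.2e-20). Orc1-HA signal in the same bin was 2.28, 1.97 and 2.09, lower than Mcm4-HA in all libraries and below the threshold of 3 used here to mark origins. The next region, on chr XII (243501 to 244000) at the end of MLO50, had Mcm4-HA signals of 2.25 to 2.29 and HOP signals of 0.770, 0.500 and 0.464 (log2 fold change 2.29, edgeR, adjusted p = 3.15e-13). In bins of 1000 bp its log2 fold change was 0.87, below the minimum of 1. From 700 bp left of the bin's center to the center, HOP fell from 2.36, 2.70 and 2.09 to 0.545, 0.424 and 0.318. Mcm4-HA changed less over that stretch, from 1.68, 2.15 and 2.06 to 2.45, 2.29 and 2.28. The fold change at this region thus reflects a dip of HOP more than a rise of Mcm4-HA. The last of the 12 was on chr IV (485501 to 486000, right of the construct and not annotated), with Mcm4-HA at 3.68, 3.01 and 3.45 and HOP at 0.779, 0.979 and 0.495 (log2 fold change 2.28, edgeR, adjusted p = 1.12e-14). The plot of signals by library shows the regions with the largest changes, which were chosen among those without overlap between strains.

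Several other regions away from the ends, chosen after their values were seen, had Mcm4-HA signals above 4. On chr VII (888001 to 888500), between XKS1, which encodes xylulokinase, and SKI6, a subunit of the RNA exosome, Mcm4-HA was 5.29, 4.55 and 4.32 and HOP 1.08, 0.945 and 1.1. On chr II (63001 to 63500), in the gap before BOI1, the signals were 4.88, 4.24 and 4.99 against 1.33, 1.06 and 1.26. On chr VI (199001 to 200000, between ROG3 and PES4) the mean of the best bin was 5.1 in Mcm4-HA and 1.25 in HOP. Their log2 fold changes were 2.21, 2.19 and 2.26, and each is a sharp summit over a HOP signal near or slightly above the 20th percentile. Further enriched regions, named here for the genes beside them, lay next to RIF1, which binds telomeres and acts in origin timing (chr II, 757001 to 758000, 2.16), the histone H4 gene HHF1 (chr II, 254501 to 255500, 2.08), and FKH2, a forkhead transcription factor (chr XIV, 498501 to 499500, 2.07).

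No list of mapped origins was used here, because the annotation at hand names none. Origins were represented by stand-in regions, bins with an Orc1-HA signal of at least 3 in each of 3 G1 libraries and an unsynchronized HOP signal below 2 in each of 3 libraries, joined into regions and represented by the bin of highest Orc1-HA signal. None of these libraries enters the comparison of Mcm4-HA with HOP. There were 258 such regions. The 16 centromeres were all among them, and 2 lay at ORC1 and URA3, which have a high read count in the Orc1-HA strain only (9.41 to 9.84 over ORC1 and 9.15 to 11.5 over URA3). These 18 were set apart after their values were seen.

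Of the 240 remaining stand-in regions, 190 were enriched for Mcm4-HA (79.2%, against 2.14% of all bins tested) and 0 were depleted by edgeR. DESeq2 called 194 enriched and 0 depleted, and 3 of the 240 were lower at an unadjusted p below 0.05 in edgeR, 2 of them also at an adjusted p below 0.05. The lowest was on chr VIII (212001 to 212500, log2 fold change -0.86, edgeR, adjusted p = 0.00013). It borders the CUP1 repeat described below, where copy number and IP signal cannot be told apart. For the 186 more than 20 kb from a chromosome end, 144 were enriched (77.4%), 175 had a log2 fold change above 0, 162 were higher in all 9 pairs of libraries (8.4% of all bins were) and 2 were lower in all 9. Their median log2 fold change was 1.45, against -0.10 for all bins. Near the ends 46 of 54 were enriched. With a threshold of 2, 3 or 5 for Orc1-HA, and with centromeres kept in, 253 of 513 (49.3%), 190 of 258 (73.6%) and 86 of 107 (80.4%) stand-in regions were enriched.

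The profile over these 186 regions had a peak in Mcm4-HA and a dip in HOP. At the Orc1-HA summit the median Mcm4-HA signal was 2.86 (2.69 to 3.0 in the 3 libraries), compared with 1.34 at 2 to 2.5 kb away. HOP went the other way, from 1.42 at that distance to 0.970 at the summit (0.939 to 1.00). The ratio at the center therefore combined a rise of Mcm4-HA above its own flanks with a fall of HOP below its flanks. Bins in gaps between genes had a median HOP signal of 1.08 genome-wide, so a low HOP signal is not particular to these regions. The Mcm4-HA peak was 850 bp wide midway between its center and its flanks, against 700 bp for Orc1-HA. At the 144 enriched regions the Mcm4-HA summit lay a median of 100 bp from the Orc1-HA summit without regard to side, with a median signed distance of 0 bp. It was within 250 bp at 127 regions and within 500 bp at 140. The 144 were chosen by enrichment in the bin of the Orc1-HA summit, which itself favors short distances. The 42 regions not called were left out.

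**Figure D3:**
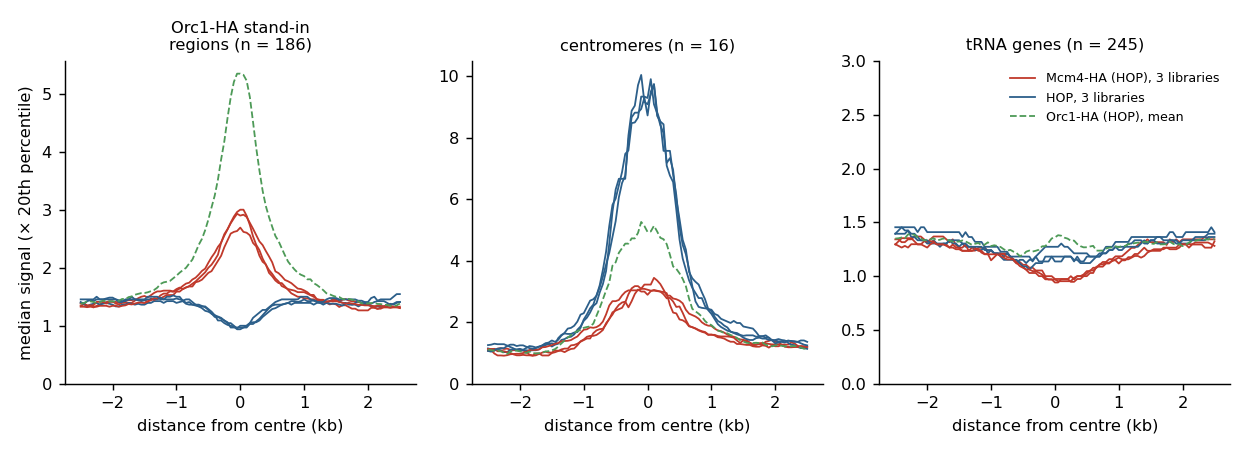
Median signal (multiples of the 20th percentile, linear axes that differ between panels) against distance from the center in kb for 186 Orc1-HA stand-in regions, 16 centromeres and 245 tRNA genes, drawn for each of 3 Mcm4-HA (HOP) libraries (red), 3 HOP libraries (blue) and the mean of Orc1-HA (HOP) (green, dashed). At the stand-in regions Mcm4-HA peaks at 2.86 where HOP dips to 0.970; at centromeres HOP peaks at 9.04 and Mcm4-HA at 3.06.

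Where a stand-in region lay relative to genes went along with how much Mcm4-HA signal exceeded HOP. Of the 116 in gaps between genes, 101 were enriched (87.1%), with a median log2 fold change of 1.6. They comprised 23 of 34 in divergent gaps (median 1.63), 48 of 50 in tandem gaps (1.63) and 30 of 32 in convergent gaps (1.51). Of the 45 centered inside a protein-coding gene, 20 were enriched (44.4%), with a median of 0.65. Of the 25 without annotation 23 were enriched. Inside genes the median Mcm4-HA signal was 2.43 and the median HOP signal 1.34, compared with 2.74 and 0.969 in gaps, so that Mcm4-HA was lower and HOP higher inside genes than in gaps. The same classes away from any stand-in region held few enriched bins, 104 of 4608 (2.26%) in gaps and 42 of 13982 (0.300%) inside genes. Their median HOP signal was also higher inside genes, at 1.52 against 1.06 in gaps, so the HOP contrast is not particular to stand-in regions. Their median Mcm4-HA signal was 1.40 inside genes and 1.04 in gaps. As the plot of fold changes by position shows, stand-in regions inside genes ranged in log2 fold change from -0.48 (within ACS2, chr XII, 446001 to 446500, edgeR, adjusted p = 0.0397) to 1.78.

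**Figure D4:**
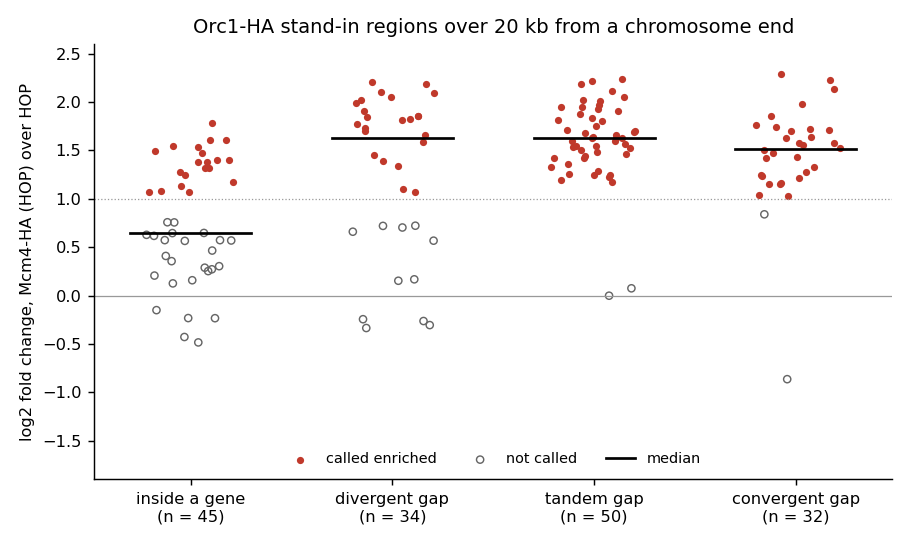
Log2 fold change of Mcm4-HA (HOP) over HOP (vertical) at each Orc1-HA stand-in region more than 20 kb from a chromosome end, by its position relative to genes; filled red points were called enriched, open points were not called, and bars mark medians. Medians are 0.65 inside genes and 1.51 to 1.63 in the 3 kinds of gap, and the dotted line marks the minimum of 1 for a call.

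Among stand-in regions, the height of Orc1-HA signal said little about the height of Mcm4-HA signal. The median Orc1-HA signal was 4.64 at the 144 enriched regions and 4.28 at the 42 others. Over all 186 regions Spearman's rho of Mcm4-HA with Orc1-HA signal was 0.046 and Pearson's r of the log2 signals was 0.14, a description over sites that share their libraries and were chosen for high Orc1-HA. On chr IV (1449001 to 1449500) an Orc1-HA signal of 16.9 went with Mcm4-HA signals of 4.52, 4.74 and 4.37, whereas SUP11 to DCV1 had a similar Mcm4-HA signal at an Orc1-HA signal of 2.11.

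A few regions of high Orc1-HA signal lacked a difference between Mcm4-HA and HOP. The clearest was on chr XI (463001 to 463500, over FPT1 and before PRY2), with Orc1-HA at 9.82. Its Mcm4-HA signals of 0.832, 0.562 and 0.911 overlapped its HOP signals of 0.855, 0.558 and 0.568 (log2 fold change 0.17, edgeR, adjusted p = 0.778). On chr XIII (158501 to 159000, at HUG1 and SML1, a pair of genes for inhibitors of ribonucleotide reductase) Orc1-HA was 9.6 and the Mcm4-HA signals of 1.44, 1.32 and 1.57 lay above the HOP signals of 0.730, 0.806 and 1.13, with a log2 fold change of 0.57 that did not pass the test (edgeR, adjusted p = 0.0678). On chr XII (730001 to 730500, at EXG1, an exo-glucanase gene) Orc1-HA was 8.31 and the Mcm4-HA signals of 2.4, 1.8 and 2.3 overlapped the HOP signals of 1.6, 1.9 and 2.1. The 8 stand-in regions within 25 kb of the rDNA, a stretch with further copies of the 5S gene, were enriched in 0 cases in edgeR and in DESeq2 (0 higher and 2 lower at an unadjusted p below 0.05 in edgeR). On chr XII (451001 to 451500) both strains were high, at 13.8, 17.8 and 11.7 in Mcm4-HA and 12.2, 9.69 and 14.6 in HOP.

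In the other direction, 223 of the 369 enriched regions (60.4%) had a stand-in bin in or next to them, and 216 of the 258 stand-in regions (83.7%) had an enriched bin in or next to them. The 146 enriched regions without one had a median Orc1-HA signal of 2.23, and 73 of them had an Orc1-HA signal of at least 2 in each library. Only 15 had a mean Orc1-HA signal below 1.5. Among these were chr IX (105501 to 106000, where ASG1 and TAO3 converge), with Mcm4-HA at 1.63, 1.04 and 1.35, HOP at 0.433, 0.364 and 0.586 and Orc1-HA at 0.696, and chr III (224501 to 225000, at TAH1), with Mcm4-HA at 1.92, 1.76 and 1.53, HOP at 0.661, 0.618 and 0.432 and Orc1-HA at 1.13. In both the strains were fully apart (log2 fold changes 1.76 and 1.71, edgeR, adjusted p = 2.4e-07 and 5.32e-09), although Mcm4-HA signal itself was not high.

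Centromeres had a high HOP signal and were lower in Mcm4-HA. All 16 were depleted and lower in all 9 pairs of libraries (17.4% of all bins were lower in all 9). Mean HOP signal was 4.08 to 28.0 and mean Mcm4-HA signal 1.57 to 10.2, and the ratio of means lay between 0.303 at CEN11 and 0.463 at CEN3. CEN13 was the highest in both strains, with Mcm4-HA at 11.3, 9.99 and 9.44 and HOP at 32.9, 26.1 and 25 (log2 fold change -1.47, edgeR, adjusted p = 3.38e-11). CEN11 had Mcm4-HA at 1.91, 2.41 and 2.32 and HOP at 7.48, 7.77 and 6.67 (log2 fold change -1.86, edgeR, adjusted p = 1.38e-14). Although depleted, centromeres still formed a peak in Mcm4-HA, with a median of 3.06 at the center (2.89 to 3.23 in the 3 libraries) and 1.14 at 2 to 2.5 kb away, against 9.04 (8.73 to 9.30) and 1.25 in HOP. In Orc1-HA the median at the center was 4.94.

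**Figure D5:**
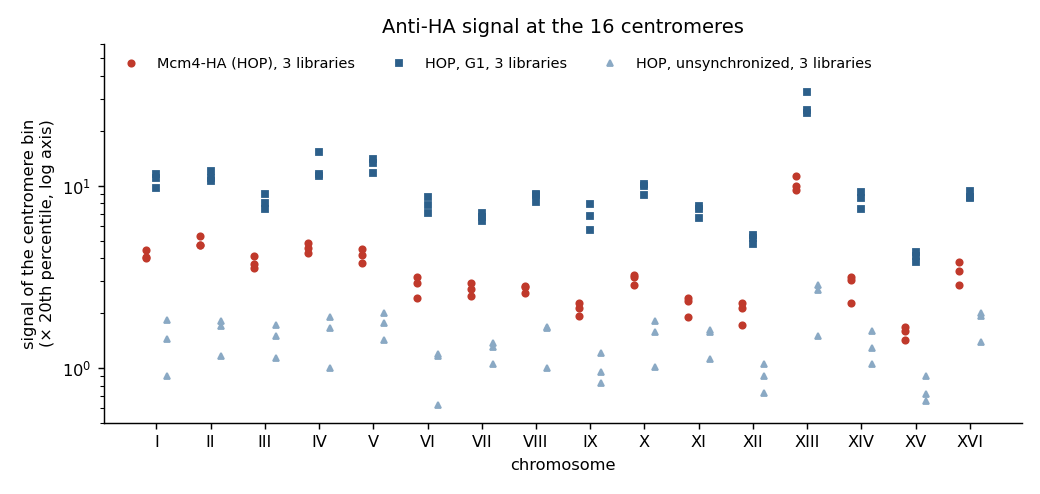
Signal of the 500 bp bin at each of the 16 centromeres (vertical, log axis, multiples of the 20th percentile) by chromosome, in each of 3 Mcm4-HA (HOP) libraries (red circles), 3 G1 HOP libraries (blue squares) and 3 unsynchronized HOP libraries (light triangles). At every centromere all G1 HOP libraries lie above all Mcm4-HA libraries, which in turn lie above all unsynchronized HOP libraries; CEN13 is highest, with G1 HOP at 25 to 32.9.

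The plot of centromere signals by library sets these values beside the unsynchronized HOP libraries. At all 16 centromeres every Mcm4-HA library was above every unsynchronized HOP library. In untagged cells, which have no HA epitope, single libraries had signals of 1.6 to 7.7 at centromeres, and mean Mcm4-HA signal was above mean untagged signal at 4 of 16. The part of culture, antibody and strain in these differences was not tested.

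Outside the rDNA and construct there were 99 depleted regions, and the 16 at centromeres made up 41 of the 164 depleted bins. A further 23 regions overlapped protein-coding genes over 5000 bp long that have a systematic name only. Of 378 bins over the 32 genes of that kind, a class defined after the values were seen, 40 were depleted (10.6%, against 0.682% of all bins) and 2 were enriched, with a median log2 fold change of -0.48. Whether such genes have near-identical copies that share reads was not tested. Of the rest, 13 lay within 500 bp of a tRNA gene, 9 had no annotation, and 38 were elsewhere. The last class was mostly of low signal: its median was 0.500 in Mcm4-HA, 1.03 in HOP and 1.09 in unsynchronized HOP.

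The 5 depleted regions with the largest changes had different settings. The region on chr V (448501 to 449500), at the start of YER138C, had Mcm4-HA signals of 0.613, 0.618 and 0.616 and HOP signals of 2.3, 2.0 and 2.1 (log2 fold change -1.94, edgeR, adjusted p = 1.7e-11). The region over UTR5 on chr V (85001 to 85500) had low signals, 0.166, 0.153 and 0.184 in Mcm4-HA and 0.658, 0.576 and 0.586 in HOP (-1.91, edgeR, adjusted p = 4.75e-05). The third was CEN11 with its flanks (chr XI, 439501 to 441000). The other two lay beside tRNA genes of chr III, next to YNCC0001C (82501 to 83000, -1.83) and between YNCC0010C and FEN2, a plasma membrane transporter gene (168501 to 169000, -1.75). In each the HOP libraries were all higher than the Mcm4-HA libraries, and in the regions at YER138C and on chr III unsynchronized HOP was close to the Mcm4-HA level, at 0.80, 0.77 and 1.1 in its first library, in the order given.

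tRNA genes as a group lay slightly below all bins. Of 242 tested, 10 were enriched (4.13%, against 2.14% of all bins) and 6 depleted (2.48%, against 0.682%). In all 9 pairs 79 were lower (17.4% of all bins were), and the median log2 fold change was -0.35. At the gene itself the median signal was 0.961 in Mcm4-HA and 1.20 in HOP. Of the 10 enriched, 7 lay within 1 kb of an Orc1-HA stand-in region, as 23 of the 245 tRNA genes did. With summed counts as library sizes the median of tRNA genes was -0.05, again below that of all bins. Of 67 snoRNA genes 0 were enriched and 5 depleted (7.46%) in edgeR (2 in DESeq2). At an unadjusted p below 0.05 in edgeR 0 were higher and 35 lower. Of all 24060 bins, 1657 were higher and 3690 lower by that measure. The median of the snoRNA genes was -0.47. The 241 bins with the highest unsynchronized HOP signal, which stand for background that needs no G1 arrest, had a median of -0.37. Of them 6 were enriched (2.49%, near the share of all bins) and 15 depleted (6.22%).

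Bodies of glycolytic and ribosomal protein genes were mostly lower in Mcm4-HA than in HOP. Few passed the fold minimum, which is set aside here. Of all bins, 5.73% were lower and 4.14% higher at an adjusted p below 0.05 in edgeR. Among 16 glycolytic genes 12 were lower by that measure in edgeR and in DESeq2, 0 were higher in either (0 also at an unadjusted p below 0.05 in edgeR), and the median log2 fold change was -0.84. The largest change was at ADH1, an alcohol dehydrogenase gene, the only one past the fold minimum, with Mcm4-HA signals of 1.02, 1.22 and 1.13 and HOP signals of 2.28, 2.29 and 2.75 (log2 fold change -1.1, edgeR, adjusted p = 3.71e-06). Its promoter also drives LexA-HA in both strains. TDH3, which encodes glyceraldehyde-3-phosphate dehydrogenase, had 1.41, 1.55 and 2.01 against 2.76, 3.28 and 2.90 (-0.91, edgeR, adjusted p = 7.06e-05). HXK1, a hexokinase gene, showed no such difference, with 1.64, 1.87 and 1.40 against 1.67, 1.5 and 1.72.

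Among 123 genes of cytoplasmic ribosomal proteins 64 were lower in edgeR and 63 in DESeq2, and 0 were higher in either or at an unadjusted p below 0.05 in edgeR. The fold minimum was passed by 3 in edgeR and 0 in DESeq2, and the median was -0.61. Among 23 pheromone-induced genes 10 were lower in edgeR and in DESeq2 and 0 higher in either or at an unadjusted p below 0.05, with a median of -0.52, and 0 passed the fold minimum in either. FIG2, a cell wall adhesin gene induced in mating, was at 1.30, 1.51 and 1.44 in Mcm4-HA and 2.6, 2.7 and 2.0 in HOP (log2 fold change -0.89, edgeR, adjusted p = 0.00011). At ADH1, TDH3 and FIG2 the libraries of the strains did not overlap. These counts rest on the scaling. With summed counts as library sizes, 1 glycolytic, 2 ribosomal protein and 0 pheromone-induced genes were lower at an adjusted p below 0.05 in edgeR (10, 28 and 3 at an unadjusted p below 0.05), and the medians were -0.57, -0.33 and -0.24, still below the 0.19 of all bins. Of all 24060 bins, 130 were lower by the adjusted p and 439 by the unadjusted p in that fit. Transcription was not measured in these cells, and both strains were exposed to α-factor.

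By gene body, 0 of the 6 genes for MCM subunits were enriched or depleted, 0 had an adjusted p below 0.05 in edgeR or DESeq2 in either direction, 2 were lower at an unadjusted p below 0.05 in edgeR, and their median of -0.10 was that of all bins. In the 250 bp upstream, 0 were called in either, but MCM2 was higher (log2 fold change 0.72, edgeR, adjusted p = 0.0199) and MCM3 lower (-0.87, edgeR, adjusted p = 0.0041). Among 17 other genes for assembly of the pre-replicative complex and origin firing 0 were called by gene body in edgeR or DESeq2, 1 was lower and 1 higher at an unadjusted p below 0.05 in edgeR, and the median was 0.03. Of 6 core histone genes 0 were called by gene body in edgeR or DESeq2, and 2 (HHT2 and HHF2) were lower at an adjusted p below 0.05 in edgeR without the fold minimum. At an unadjusted p below 0.05, 2 were lower and 1 (HHF1) was higher in edgeR.

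In the rDNA, relatively more of the Mcm4-HA than of the HOP signal lay in the spacer that holds the origin. The reads of all repeats pile onto the copies in the reference, so levels there are not comparable with single-copy loci. Over the whole array the signal was 1269.8 ± 302 in Mcm4-HA and 1721 ± 474 in HOP (SD, n = 3 each, exact permutation test, two-sided, p = 0.3). Over the 25S gene (chr XII, 451786 to 455181) it was 1752, 2051 and 1221 in Mcm4-HA and 2261, 2269.9 and 3548 in HOP, a ratio of means of 0.622. In the spacer between the 35S gene and the 5S gene (chr XII, 458433 to 459675) the order was reversed, with 851.7, 998.8 and 802.7 in Mcm4-HA and 383, 377 and 611 in HOP. The ratio of means was 1.94, and the bin at its middle was just enriched (log2 fold change 1.00, SE 0.31, edgeR, adjusted p = 0.0244). Within each library, the signal of this spacer relative to the 25S gene was 0.486, 0.487 and 0.657 in Mcm4-HA and 0.169, 0.166 and 0.172 in HOP, 3.21 times higher without overlap (exact permutation test, two-sided, p = 0.1, the smallest possible). In Orc1-HA it was 0.722, 0.578 and 0.663, in unsynchronized HOP 0.40, 0.560 and 0.497, and in unsynchronized untagged cells 0.280, 0.284 and 0.316. The libraries of unsynchronized HOP, which carry no tagged origin protein, thus overlapped those of Mcm4-HA, and G1 HOP was the lowest of the 5 groups. The spacer on the other side of the 5S gene (chr XII, 459797 to 460711) had a ratio of 1.13, with overlapping libraries (p = 0.5 by the same exact test). The within-library quotient does not depend on the scaling to the 20th percentile, whereas the levels do.

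The silent mating-type loci HML and HMR, which are flanked by silencers that bind ORC, had more signal in Mcm4-HA. At HML (chr III, 12386 to 13809) Mcm4-HA was 1.76, 1.43 and 1.98 and HOP 1.01, 0.930 and 1.06, and the middle bin was enriched (log2 fold change 1.23, edgeR, adjusted p = 9.41e-05). At HMR (chr III, 293179 to 294321) the values were 3.05, 3.08 and 3.10 against 1.88, 1.94 and 2.04, and the bin of highest Orc1-HA signal had a log2 fold change of 0.72 (edgeR, adjusted p = 0.00117), short of the fold minimum. The ratios of means were 1.73 and 1.6, without overlap in either case (exact permutation test, two-sided, p = 0.1 for each, the smallest possible). MAT, which shares sequence with HML and HMR, had a ratio of 1.48. The study gives its reference genome as MATα, whereas both strains are MATa. Reads of the α genes at MAT therefore come from HML, and reads of the a genes at MAT count toward HMR. The ratio at MAT cannot be read as a value of MAT itself, and reads of sequence common to the 3 loci cannot be assigned to 1 of them.

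The lexA array is the site of the decoy, and both strains carry it by their labels. At TRP1 (chr IV, 461501 to 462000) Mcm4-HA (HOP) signals were 0.934, 0.747 and 0.652 and HOP signals 3.88, 2.76 and 2.46, a ratio of means of 0.256 (exact permutation test, two-sided, p = 0.1, log2 fold change -2.15, edgeR, adjusted p = 1.72e-13). The array signal was thus lower in every Mcm4-HA (HOP) library. It was similarly low in Orc1-HA (HOP), at 0.566, 1.08 and 0.847, so the low signal is not particular to the Mcm4-HA strain. Untagged cells, at 0.189 to 0.222, lack the construct, so they give no baseline for binding to it. In Mcm4-HA (HOP) the mean array signal of 0.778 was below the 1.14 of the 1 kb left of the construct. In HOP the array was above that flank, at 3.03 against 1.80. Binding of the decoy in Mcm4-HA (HOP) is therefore not shown by this signal. The array signal was 6.93 to 11.4 in unsynchronized HOP. The sequence with the lexA sites at ADE2, which the alignment reference also holds although neither strain carries that construct by its label, gave 0.703, 0.474 and 0.392 against 3.12, 1.96 and 1.56. Both arrays share sequence. The 1 kb left of the construct had a ratio of 0.630. The amount of LexA-HA in the strains was not measured here. On the other side of the construct (chr IV, 464001 to 464500, a locus chosen after its values were seen), on the side of the origin that neighbors TRP1, Mcm4-HA was 2.68, 2.37 and 2.78, HOP 1.53, 1.08 and 1.04 and Orc1-HA 7.13 to 8.67, and the ratio of means was 2.15.

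Among the remaining single loci, FKH1 had signals of 1.44 ± 0.20 in Mcm4-HA and 1.70 ± 0.27 in HOP (SD, n = 3 each, exact permutation test, two-sided, p = 0.2), and ORC1 had 1.47 and 1.55 (p = 0.5 by the same exact test). URA3 and LEU2 were lower in Mcm4-HA, at 1.16 against 1.68 and 1.17 against 1.64, each without overlap (exact permutation p = 0.1). At LEU2 the unsynchronized libraries were far higher, at 10.4 to 15.1 in HOP and 10.9 to 16.9 in untagged cells. The source of that difference was not tested. The repeat with CUP1, the metallothionein gene, was depleted, at 4.54, 3.61 and 3.82 against 8.96, 8.41 and 8.90 (ratio 0.456; log2 fold change of its middle bin -1.27, edgeR, adjusted p = 7.07e-10). CUP1 is a repeat whose copy number varies between strains, and copy number and IP signal cannot be told apart from these counts.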

How the data were processed

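Reads (150 bp, paired-end) were aligned by the authors in Bowtie2, duplicates were taken out in SAMtools, and reads overlapping each 50 bp window were counted in bedtools. The deposited values are these raw counts, unscaled, so neighboring windows share reads. The reference sequence came from the Saccharomyces Genome Database per the study's methods, and a build name is not given in the sources used here. The coordinates of the files hold the constructs at TRP1 and ADE2, so R64 gene positions were used only left of those sites.

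Signal followed the study's steps: a moving median over 10 windows, divided by the library's 20th percentile. Bins of 500 bp (24134) are means of 10 windows. Tests used the sum of 10 unsmoothed windows, library sizes set by that percentile, bins that reached 10 counts in 3 or more libraries, and edgeR 4.0.16 in R 4.3.3 (glmQLFit, glmQLFTest, Benjamini-Hochberg adjustment over all bins). Calls needed adjusted p < 0.05 and a change of 1 or more on the log2 scale. Lists are described by counts and medians. For single loci the exact permutation test (two-sided) was run in scipy 1.17.1. In simulated counts, edgeR found 180 of 200 bins changed 2-fold in this comparison, 94 of them past the fold minimum, and 200 of 200 changed 4-fold. DESeq2 1.42.0 was an alternative.

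Named regions are the 12 enriched and 5 depleted ones of largest change in all 9 pairs, the centromeres and the single loci. Members, lists and tests were chosen with earlier results of these data known. HOP libraries also serve as the control of Orc1-HA, and no overlap of the 2 comparisons was computed.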

Additional observations from a re-analysis of the deposited data

How the results depend on the processing

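Of the 158 values tried for the main results under other settings, 137 stayed within the limits set for them and none changed direction. The larger moves were these. Summed counts as library sizes gave 781 enriched and 52 depleted bins. The middle window of each bin gave 264 depleted bins. Bins of 1000 bp gave 246 enriched and 64 depleted bins in 237 enriched regions. A fold minimum of 0.58 (log2) gave 932 and 1136, and one of 3 times gave 190 and 20 with 179 regions, 92 enriched stand-in regions (with or without centromeres, ORC1 and URA3) and 8 depleted centromeres. The median log2 ratio of all 258 stand-in regions above that of all bins, 1.45, became 1.52 without the moving median, 1.21 as a mean, 0.72 over 1 kb on each side and 1.04 with an Orc1-HA threshold of 2. The same value at centromeres, -1.37, became -0.89 over 1 kb on each side and lay between -1.47 and -1.26 with 1 library left out. Leaving out each library in turn gave 511 to 546 enriched and 171 to 206 depleted bins, 368 to 389 enriched regions, 184 to 192 enriched stand-in regions and 16 depleted centromeres each time. TMM gave 579 and 118 bins, DESeq2 582 and 120, and with centromeres left out 123 bins were depleted. Of 270 values of the named regions, 269 kept their call; the exception is the region at MLO50 in bins of 1000 bp (0.87). The replicate numbers do not pair the libraries: deviations of same-numbered libraries correlated at -0.005, -0.015 and -0.020, and a fit with the replicate number as a block gave 521 enriched and 165 depleted bins, 370 regions and 191 enriched stand-in regions. HOP replicate 3 had the lowest depth, 11 counts per window at the 20th percentile, which limits the precision of low-signal bins most.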
